A study of Mus musculus with 2 samples.

Results

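p53 and its cell-cycle targets were examined in mouse embryonic stem (ES) cells: *Trp53*, which encodes the transcription factor p53, the regulators *Mdm2* and *Mdm4*, and the target genes *Cdkn1a*, *Ccng1*, *Trp53inp1*, *Zmat3*, *Phlda3* and *Aen*. These 9 genes were chosen by name and found by their Ensembl identifiers among the 54146 genes of the files, and all 9 had counts in both libraries. All members but *Trp53* are called the 8 targets below, although *Mdm4* is known mainly as a regulator. Single cells of a wild-type ES line (WT) and of a *Lin28a* knockout ES line (labelled AKO) were each captured as 1 inDrop library, in which every captured transcript is read near its 3′ end and carries a unique molecular identifier (UMI). Both lines were described as derived from the inner cell mass, were not treated with any agent, and grew for 2 days in medium with LIF and the inhibitors of the 2i mix, on gelatin and a layer of mouse embryonic fibroblasts (MEFs). The authors describe the knockout line as a clone made with CRISPR/Cas9 and the WT line as a transfected wild-type clone. Each genotype is thus represented by 1 line that is itself a single clone. Any other difference between the 2 lines, cultures or captures cannot be told apart from the knockout. With 1 library per genotype there was no replicate and no test was made, and all intervals are at 95% and cover counting error only.

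p53 is held low in undamaged cells because MDM2 marks it for degradation, while MDM4, a relative of MDM2, masks its activation domain. When p53 builds up it switches on genes that stop the cell cycle, start apoptosis or limit p53 itself, and *Mdm2* and *Cdkn1a* are its best known targets. Control acts mainly on the protein, so the level of *Trp53* RNA and the levels of target RNAs need not move together. Mouse ES cells are known for abundant *Trp53* RNA and for a very short G1 phase with weak G1 arrest.

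Cells were barcodes with at least 500 UMIs and at most 20% of UMIs on mitochondrial genes, which left 1856 WT and 1622 AKO cells. Of these, 48 WT cells (2.59%, exact binomial interval 1.91 to 3.41) and 23 AKO cells (1.42%, 0.901 to 2.12) had at least 0.3% of their UMIs on *Col1a1*, *Col1a2* and *Col3a1* and are called fibroblasts, and the 1808 and 1599 remaining cells are called the other cells. The ES marker *Pou5f1* stood at 869 and 1025 CPM (summed UMIs of a gene per 1000000 UMIs of all genes) in the other cells and at 46.3 and 174 CPM in the fibroblasts of the WT and AKO library. All 10 ES markers listed were detected in the other cells of both libraries, where they summed to 5019 and 5089 CPM against 1082 and 1051 CPM in fibroblasts. One of them, *Klf4*, was higher in WT fibroblasts (760 CPM) than in the WT other cells (580 CPM). All 9 fibroblast markers that did not choose the cells were higher in fibroblasts, with summed levels of 15029 and 11353 CPM against 958 and 933 CPM in the other cells. A collagen UMI was present in 11.8% and 10.8% of the other cells, a gauge of free RNA, and cells between 0.15% and 0.3% numbered 13 and 11. The other cells held 11207628 and 9225733 UMIs, with a median of 6112 and 5072 per cell. *Lin28a*, the targeted gene, stood at 110.5 CPM in WT and 36.9 CPM in AKO, a ratio of 0.333 (0.295 to 0.376), and a 3′ tag lies outside the edited part of the gene. Barcodes are numbered within each file, so barcodes shared by the libraries could not be counted.

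Short stretches of the promoters of 5 members carry the p53 half-site consensus, the 10-base element of which a full p53 site holds 2 copies. They are shown because the members were chosen as *Trp53*, its regulators and its target genes, and their dependence on p53 was not measured here. RefSeq promoter windows, from 250 bases before to 50 bases after a start site in build GRCm38.p6, were given for 7 of the 9 members, and *Trp53inp1* and *Zmat3* were without one. The consensus reads the same on both strands, and its 10 bases are in capitals.
Cdkn1a, chr17:29090896-29090947, plus strand: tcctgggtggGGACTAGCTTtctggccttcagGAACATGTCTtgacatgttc
Mdm2, chr10:117710925-117710954, minus strand: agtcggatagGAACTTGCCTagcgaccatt
Ccng1, chr11:40755452-40755481, minus strand: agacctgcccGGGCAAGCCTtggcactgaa
Aen, chr7:78895927-78895956, plus strand: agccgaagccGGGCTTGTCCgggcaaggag
Trp53, chr11:69580274-69580303, plus strand: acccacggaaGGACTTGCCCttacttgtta
The *Cdkn1a* stretch begins 10 bases before the first match, which lies at -73 from the start site, and holds 2 exact half-site matches with 12 bases between them. The 10 bases directly after the second match differ from the consensus at their first base only. The search took exact matches only, so it does not tell which of these bases p53 binds. The *Aen* match lies at 10 from one annotated start site and at -121 from a second one. Such a pair, with at most 13 bases between, was present in 24 of 32851 windows of the same length (0.0731%). A single half-site was present in 8.36% of these windows, so the single matches of *Mdm2*, *Ccng1*, *Aen* and *Trp53* are a description of the letters only. No match was found in the windows of *Mdm4* and *Phlda3* or in the second window of *Cdkn1a*.

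*Trp53* (ENSMUSG00000059552, chr11:69580359-69591873, plus strand of GRCm38) had a ratio close to 1. The other cells had 6584 UMIs or 587 CPM (exact Poisson interval 573 to 602) in WT and 5343 UMIs or 579 CPM (564 to 595) in AKO. The ratio of AKO over WT was 0.986, and its interval of 0.951 to 1.02 held 1, while 0.943 (0.910 to 0.978) under median of ratios scaling did not. When each cell of at least 2000 UMIs was taken at 2000 UMIs, 67.9% of 1600 WT and 65.5% of 1097 AKO cells had a *Trp53* UMI, against 94.8% and 91.9% at full depth. No cell type in these libraries is known to lack *Trp53* or its targets, so no background share of cells could be set. *Trp53* varied less between cells than the median gene: its variance beyond counting error, as squared coefficient of variation at 2000 UMIs, was 0.0528 and 0.0906. The median was 0.221 over 7166 genes in WT and 0.315 over 6398 genes in AKO, those with at least 200 UMIs in the cells used. These genes were not matched to *Trp53* for level. It was the only member that was lower in the fibroblasts of both libraries with an interval below 1, at 283 CPM (235 to 337) in WT and 313 CPM (219 to 433) in AKO.

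Over all the other cells the 2 genes whose proteins restrain p53 had ratios close to 1, although that of *Mdm2* went both ways between bins of cells (below). *Mdm2* (chr10:117688875-117710758, minus strand), the ubiquitin ligase that removes p53, stood at 108 CPM (101.5 to 114) in WT and 102 CPM (95.9 to 109) in AKO. Its ratio of 0.952 (0.873 to 1.04) held 1, but 0.911 (0.835 to 0.992) under median of ratios scaling and 0.913 (0.836 to 0.996) with a fibroblast limit of 0.1% did not. *Mdm4* (chr1:132959484-133030561, minus strand), the related inhibitor, stood at 73.5 CPM (68.6 to 78.7) and 74.1 CPM (68.7 to 79.9), a ratio of 1.01 (0.910 to 1.12). At 2000 UMIs per cell a UMI was present in 19.0% and 16.4% of cells for *Mdm2* and in 13.5% and 12.7% for *Mdm4*. *Mdm4* overlaps the annotated gene Gm29257 and *Cdkn1a* overlaps AC167363.2, and no member had more than 2 UMIs that the files count as ambiguous.

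Of the 6 remaining targets *Phlda3* and *Aen* were higher in AKO, *Trp53inp1* and, by a small margin, *Cdkn1a* were lower, and the intervals of *Ccng1* and *Zmat3* held 1, although the calls for *Cdkn1a* and *Ccng1* turned with the genes counted in the totals. The ratios of *Cdkn1a* and *Ccng1* also varied between bins of cells (below). *Phlda3* (chr1:135766119-135769136, plus strand), whose product competes with Akt for membrane lipids, stood at 43.0 CPM (39.3 to 47.0) in WT and at 68.1 CPM (62.9 to 73.6) in AKO cells, a ratio of 1.58 (1.40 to 1.79). *Aen* (chr7:78895854-78911209, plus strand), a nuclease that takes part in apoptosis, stood at 74.0 CPM (69.0 to 79.2) and 110.0 CPM (103 to 117), a ratio of 1.49 (1.36 to 1.63). *Trp53inp1* (chr4:11156431-11174379, plus strand), which promotes p53-dependent apoptosis, stood at 55.7 CPM (51.4 to 60.2) and 41.3 CPM (37.3 to 45.7), a ratio of 0.742 (0.651 to 0.844). The intervals of these 3 ratios and of *Cdkn1a* leave out 1, as did those of 58.7% of the 9643 genes with at least 200 UMIs over both libraries (30.5% higher and 28.2% lower in AKO). They cover the counting of UMIs pooled over cells but neither the variation between cells, given below, nor that between cultures, and are no test of the genotypes. Among barcodes under 500 UMIs, which hold free RNA and shallow cells, the ratio was 1.36 (0.639 to 3.10) for *Phlda3*, 0.902 (0.568 to 1.45) for *Aen* and 1.35 (0.691 to 2.77) for *Trp53inp1*, all of which held 1.

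For these 3 targets the share of cells with a UMI differed in the same direction as the level. At 2000 UMIs per cell a *Phlda3* UMI was present in 8.28% of WT cells (7.01 to 9.77) and 13.4% of AKO cells (11.4 to 15.6), against 23.1% and 35.7% at full depth. An *Aen* UMI was present in 13.7% (12.04 to 15.5) and 20.6% (18.2 to 23.1), and a *Trp53inp1* UMI in 10.7% (9.22 to 12.3) and 7.15% (5.66 to 8.79). At this depth the exact binomial intervals of the libraries did not overlap for these 3 genes (2 higher and 1 lower in AKO), where 7.54% of the 9643 genes were higher and 13.4% lower without overlap, 20.9% in all, while those of *Cdkn1a* (33.8% and 31.1%), *Ccng1* (16.8% and 16.9%) and *Zmat3* (4.35% and 4.63%) did. At 1000 UMIs the intervals overlapped for *Phlda3* (3.40 to 5.41 and 5.15 to 7.90) and *Trp53inp1* (4.47 to 6.73 and 2.55 to 4.63), and at 5000 UMIs for *Trp53inp1* (19.1 to 23.8 and 14.01 to 19.2). That left 1 member higher (*Aen*) and 0 lower without overlap at 1000 UMIs, where 4.39% and 7.88% of genes were (12.3% in all), and 2 higher (*Phlda3* and *Aen*) and 0 lower at 5000, where 10.8% and 16.6% were (27.4% in all). These intervals count cells of 1 library per genotype, which are not replicates.

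*Cdkn1a* (chr17:29090976-29100727, plus strand), which encodes the cyclin-dependent kinase inhibitor p21, stood at 227 CPM (218 to 236) in WT and 213 CPM (204 to 223) in AKO, a ratio of 0.940 (0.886 to 0.997). With mitochondrial and ribosomal protein genes left out of the totals it was 0.954 (0.899 to 1.01), which held 1. One AKO cell decided how close to 1 this ratio came. It held 132 *Cdkn1a* and 32 *Mdm2* UMIs among 18430, or 6.71% of all *Cdkn1a* UMIs of the AKO library's other cells, while the next highest AKO cell had 13 and the highest WT cell 22. Its collagen share of 0.244% was just under the limit for fibroblasts, and it held 1 *Pou5f1*, 65 *Sparc* and 27 *Vim* UMIs. Without it, an alternative chosen after seeing the data, the *Cdkn1a* ratio was 0.878 (0.827 to 0.933).

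*Ccng1* (chr11:40748552-40755311, minus strand), which encodes cyclin G1, a protein that recruits a phosphatase to MDM2, stood at 93.4 CPM and 102 CPM, a ratio of 1.09 (0.998 to 1.19), but 1.11 (1.01 to 1.21) with mitochondrial and ribosomal protein genes left out of the totals did not hold 1. *Zmat3* (chr3:32334792-32366014, minus strand), which encodes an RNA-binding zinc finger protein, had the fewest UMIs of the members, 250 and 222, and a ratio of 1.08 (0.896 to 1.30). Summed, the 8 targets stood at 696 CPM (681 to 712) in WT and 735 CPM (718 to 753) in AKO, a ratio of 1.06 (1.02 to 1.09), and without *Cdkn1a* the ratio of the other 7 was 1.11 (1.07 to 1.16). Without the AKO cell named above the ratio of the sum was 1.03 (0.995 to 1.06), and with a fibroblast limit of 0.1% it was 1.02 (0.991 to 1.06), and under median of ratios scaling 1.01 (0.978 to 1.04), all of which held 1. Past a fold of 1.5, 1 of the 9 members (*Phlda3*) was higher and 0 were lower in AKO, where 6.87% of the 9643 genes compared (at least 200 UMIs over both libraries) were higher and 7.87% lower (5.05% and 10.02% under median of ratios scaling). *Aen*, at 1.49, lay just inside that fold. The median log2 ratio was 0.01 over the members and 0.03 over all genes compared. *Phlda3* had a higher ratio than 95.2% of these genes, *Aen* than 92.7% and *Trp53inp1* than 14.2%.

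**Figure D1:**
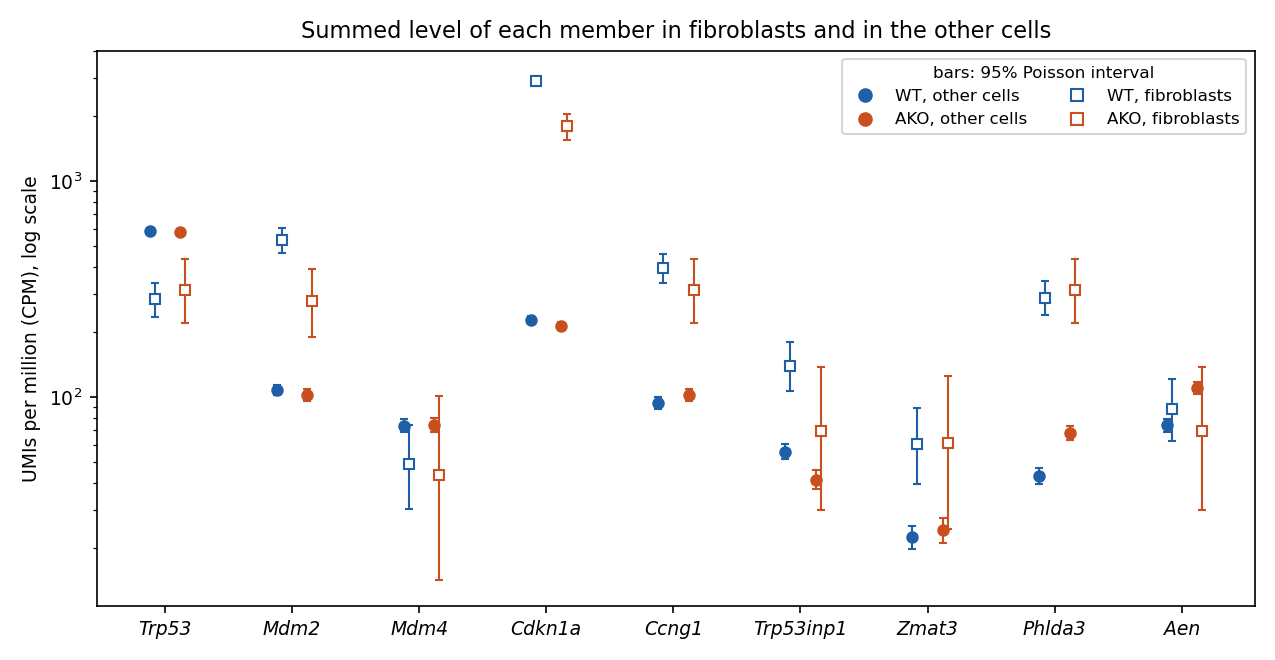
Summed level of each member in CPM on a log axis, in the other cells (filled circles) and the fibroblasts (open squares) of the WT (blue) and AKO library (orange), with 95% Poisson intervals. *Cdkn1a* stands near 2896 and 1789 CPM in fibroblasts against 227 and 213 CPM in the other cells, while *Trp53* is lower in fibroblasts.

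The few fibroblasts carried a large share of the *Cdkn1a* RNA of WT. In the 48 WT fibroblasts *Cdkn1a* stood at 2896 CPM (2738 to 3061), 12.8-fold (11.9 to 13.7) above the other cells, and in the 23 AKO fibroblasts at 1789 CPM (1553 to 2051), 8.39-fold (7.24 to 9.69) above. Fibroblasts were thus 2.59% of the WT cells but held 33.0% of their *Cdkn1a* UMIs, and 1.42% of the AKO cells with 9.48%. Of the UMIs of the 7 targets without *Cdkn1a* they held 11.3% in WT and 2.67% in AKO, and of single targets among these from 2.49% (*Mdm4*) to 20.5% (*Phlda3*) in WT and from 0.726% (*Mdm4*) to 5.42% (*Phlda3*) in AKO. Over single WT fibroblasts *Cdkn1a* ranged from 0 to 9064 CPM with a median of 2301, and over AKO fibroblasts from 0 to 4504 with a median of 1629, while the median of the other cells of at least 2000 UMIs was 158 and 141 CPM. The ranges overlapped, and 6 of 48 WT and 2 of 23 AKO fibroblasts had no *Cdkn1a* UMI.

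*Phlda3* was 6.68-fold (5.44 to 8.15) and 4.59-fold (3.19 to 6.43) higher in fibroblasts, *Mdm2* 4.93-fold (4.27 to 5.69) and 2.72-fold (1.85 to 3.86), and *Ccng1* 4.22-fold (3.56 to 4.96) and 3.07-fold (2.14 to 4.28). *Zmat3* had ratios of 2.70 and 2.53 from 26 and 7 fibroblast UMIs. *Trp53inp1* was 2.50-fold (1.88 to 3.26) higher in WT, and its 8 UMIs in AKO fibroblasts gave an interval, 0.721 to 3.35, that held 1. *Aen* and *Mdm4* did not share this pattern, with intervals of 0.836 to 1.65 and 0.407 to 1.02 in WT and of 0.272 to 1.25 and 0.190 to 1.37 in AKO. In both libraries 6 of the 9 members were past 1.5-fold higher in fibroblasts, where 28.8% and 31.6% of genes were. Past 1.5-fold lower were 1 member (*Trp53*) in WT and 2 (*Trp53* and *Mdm4*) in AKO, against 35.7% and 33.6% of genes.

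Keeping the fibroblasts in moved the comparison of the libraries. The *Cdkn1a* ratio of AKO over WT became 0.714 (0.677 to 0.753), the *Mdm2* ratio 0.848 (0.781 to 0.921) and the *Phlda3* ratio 1.37 (1.22 to 1.53). The sum of the 8 targets changed direction, from 1.06 to 0.912 (0.885 to 0.941). *Trp53*, *Mdm4* and *Aen* stayed at 0.999, 1.02 and 1.47. Fibroblasts of the libraries also differed in depth, with a median of 8131.5 UMIs in WT and 2295 in AKO, and in level, with ratios of AKO over WT of 0.618 (0.531 to 0.717) for *Cdkn1a* and 0.524 (0.350 to 0.761) for *Mdm2*. How much of the shift goes with their share of cells and how much with their level was not tested. Whether these cells are feeder MEFs or came from the ES line is not given by the labels.

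**Figure D2:**
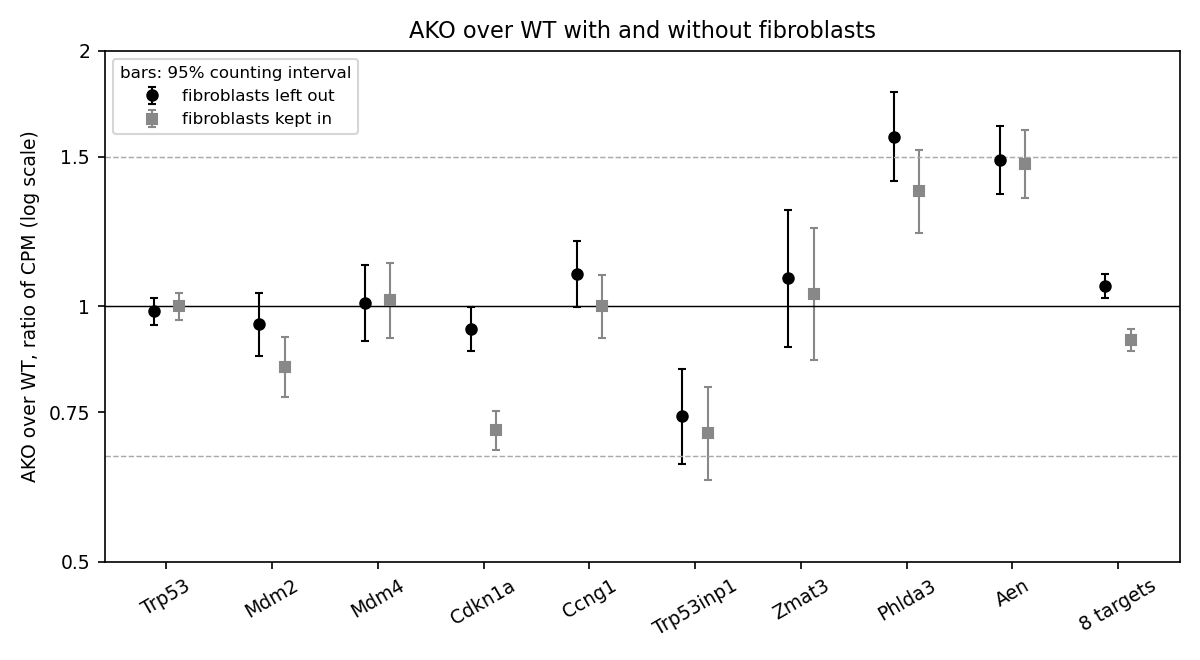
AKO over WT ratio of CPM for each member and for the summed 8 targets on a log axis, with fibroblasts left out (black circles) or kept in (grey squares), 95% counting intervals as bars and dashed lines at a fold of 1.5 in either direction. The 8 targets lie at 1.06 without and 0.912 with fibroblasts, and *Cdkn1a* at 0.940 and 0.714.

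To see whether the 3 targets that differed most followed one kind of cell, the other cells of each library were divided by UMIs per cell (5 bins), by the share of UMIs on 84 ribosomal protein (RP) genes (4 bins), and, for cells of at least 2000 UMIs, into terciles by the share of UMIs on 42 S-phase or 52 G2/M markers, 15 bins in all. *Phlda3* was higher in AKO in 14 of 15 bins, with an interval above 1 in 12, but 1 of the 14, the lowest RP bin, held 0 WT and 6 AKO UMIs and gives no ratio. *Aen* was higher in 14 bins, with an interval above 1 in 12. *Trp53inp1* was lower in 12 of 15 bins, with an interval below 1 in 7. *Mdm2* was higher in 6 of 15 bins, with an interval above 1 in 1 and below 1 in 2. Its ratio was 0.580 (0.445 to 0.7495) in cells of 2000 to 5000 UMIs and 0.726 (0.621 to 0.848) in the middle tercile of S-phase markers. In cells of 5 to 10% RP share the *Mdm2* ratio was 1.13 (1.01 to 1.26). *Cdkn1a* had an interval above 1 in 2 bins and below 1 in 5, and *Ccng1* above 1 in 4 and below 1 in 0. The bins reuse the same cells, so these counts describe how widely a difference was spread and are not independent.

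The *Trp53inp1* difference was uneven. It was at 73.4 CPM in WT and 30.2 CPM in AKO cells of 2000 to 5000 UMIs, a ratio of 0.412 (0.266 to 0.619), but at 37.2 and 46.6 CPM in cells of 10000 or more, a ratio of 1.25 (0.961 to 1.65). In cells of 5 to 10% RP share it was at 74.9 and 71.1 CPM, a ratio of 0.949 (0.815 to 1.10). AKO had more RP-rich cells, with 19.8% of its cells at 15% or over against 11.1%, and when its bins of RP share were weighted as in WT the *Trp53inp1* ratio was 0.899. This weighting, chosen after seeing the data, left *Phlda3* at 1.49 and *Aen* at 1.46 and moved *Ccng1* to 1.21 and *Mdm2* to 1.08.

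**Figure D3:**
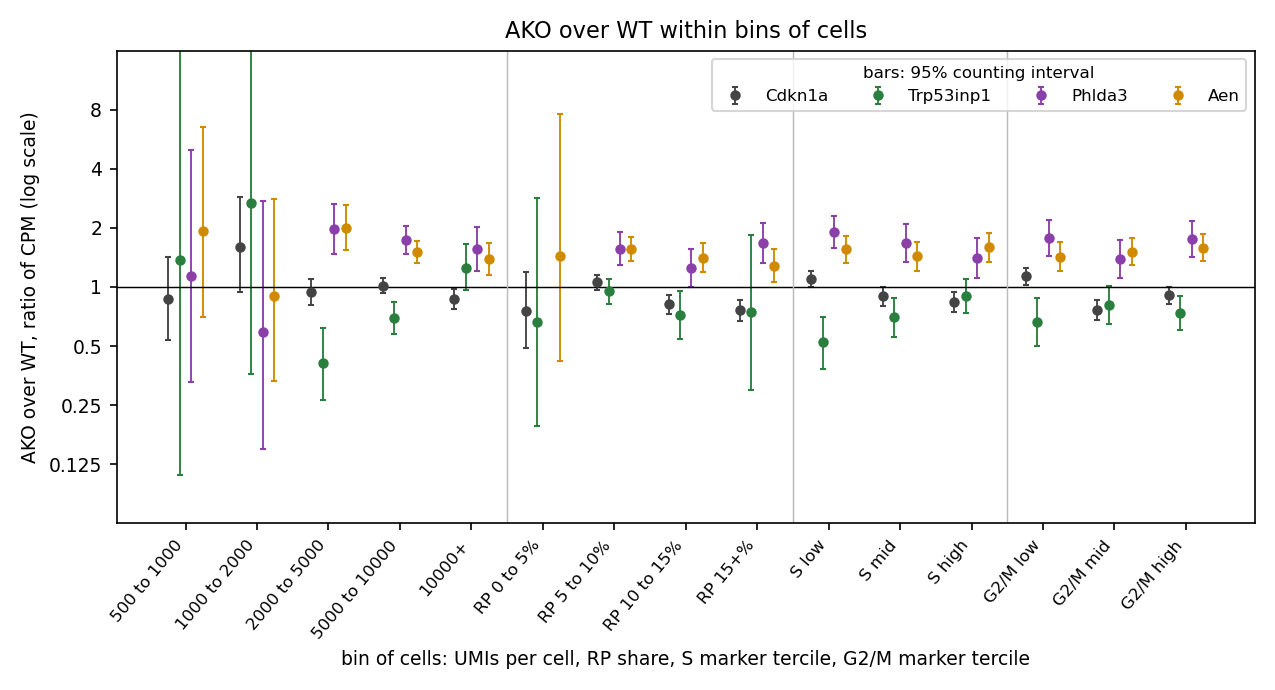
AKO over WT ratio of CPM on a log axis within 15 bins of the other cells, for *Cdkn1a*, *Trp53inp1*, *Phlda3* and *Aen*, with 95% counting intervals (2 *Trp53inp1* bars run past the axis, and *Phlda3* in the lowest RP bin, without a WT UMI, is not drawn). *Aen* lies above 1 in 14 of 15 bins and *Phlda3* in every bin drawn but that of 1000 to 2000 UMIs, and *Trp53inp1* ranges from 0.412 to 2.69.

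By RP share, 5 targets were past 1.5-fold lower in RP-rich cells than in cells of 5 to 10% in both libraries. Past 1.5-fold higher were 3 targets in WT and 1 (*Phlda3*) in AKO. Of all genes compared, 44.6% and 45.6% were past 1.5-fold lower and 23.9% and 23.8% past 1.5-fold higher. Cells at 15% RP share or over, 200 WT and 316 AKO, had median mitochondrial shares of 0.163% and 0.250% against 1.66% and 2.43% in cells of 5 to 10%, and median depths of 7533.5 and 5981.5 UMIs. *Trp53inp1* stood at 7.59 and 5.66 CPM there against 74.9 and 71.1 CPM in cells of 5 to 10%, ratios of 0.101 (0.0519 to 0.178) and 0.0795 (0.0392 to 0.145). *Ccng1* had ratios of 0.211 (0.1495 to 0.290) and 0.131 (0.0910 to 0.184) and *Mdm2* of 0.302 (0.230 to 0.390) and 0.193 (0.144 to 0.255). *Mdm4* and *Zmat3* were lower as well, with ratios from 0.247 to 0.373 in the libraries.

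*Phlda3*, *Aen* and *Cdkn1a* were higher in RP-rich cells than in cells of 5 to 10%. *Phlda3* stood at 34.5 CPM in cells of 5 to 10% and at 68.3 CPM in RP-rich cells of WT, and at 53.9 and 114 CPM in AKO, ratios of 1.98 (1.56 to 2.50) and 2.12 (1.74 to 2.57). *Aen* had ratios of 1.64 (1.36 to 1.96) and 1.35 (1.15 to 1.59) and *Cdkn1a* of 1.69 (1.52 to 1.87) and 1.22 (1.09 to 1.36). *Trp53* had ratios of 1.08 (1.01 to 1.16) and 0.921 (0.854 to 0.992). In the 83 WT and 228 AKO cells under 5% RP share, whose median depths were 789 and 1197 UMIs, *Cdkn1a* stood at 370 and 279 CPM, against 334 and 255 CPM in RP-rich cells. Its ratio over cells of 10 to 15% was 1.62 (1.07 to 2.36) in WT and 1.497 (1.18 to 1.88) in AKO, where *Mdm4* had 2.51 (1.82 to 3.40) and *Ccng1* 1.72 (1.26 to 2.299). The AKO ratios of *Mdm2*, *Trp53inp1* and *Zmat3* and the WT ratios of these 5 genes had intervals that held 1. The same ratio of *Trp53* was 0.623 (0.515 to 0.747) in AKO and 0.779 (0.544 to 1.08), which held 1, in WT. In AKO it was 0.309 (0.112 to 0.684) for *Phlda3* and 0.514 (0.301 to 0.825) for *Aen*, while WT had only 0 and 3 UMIs of them in these cells. Cells under 5% also had median mitochondrial shares of 4.32% and 5.83%, against 0.947% and 1.24% in cells of 10 to 15%, and *Pou5f1* at 132 and 244 CPM against 971 and 1134 CPM. The part of depth, mitochondrial share and cell identity in these ratios was not tested. The AKO cell with 132 *Cdkn1a* UMIs was also kept in the bins of RP share. Its part in the AKO ratios of *Cdkn1a* was not tested.

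Most genes were past 1.5-fold between RP-rich cells and cells of 5 to 10%. Of the 9 members 5 were past 1.5-fold lower in both libraries, and 3 in WT and 1 in AKO were past 1.5-fold higher, so the counts of members are near the shares of all genes given above. The position of single members is less common: *Trp53inp1* had a lower ratio than all but 2.57% and 2.34% of genes, and *Ccng1* than all but 10.1% and 6.12%. With RP UMIs taken out of the totals the *Trp53inp1* ratios were 0.112 and 0.0874. The part of the low mitochondrial share in these values was not tested.

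**Figure D4:**
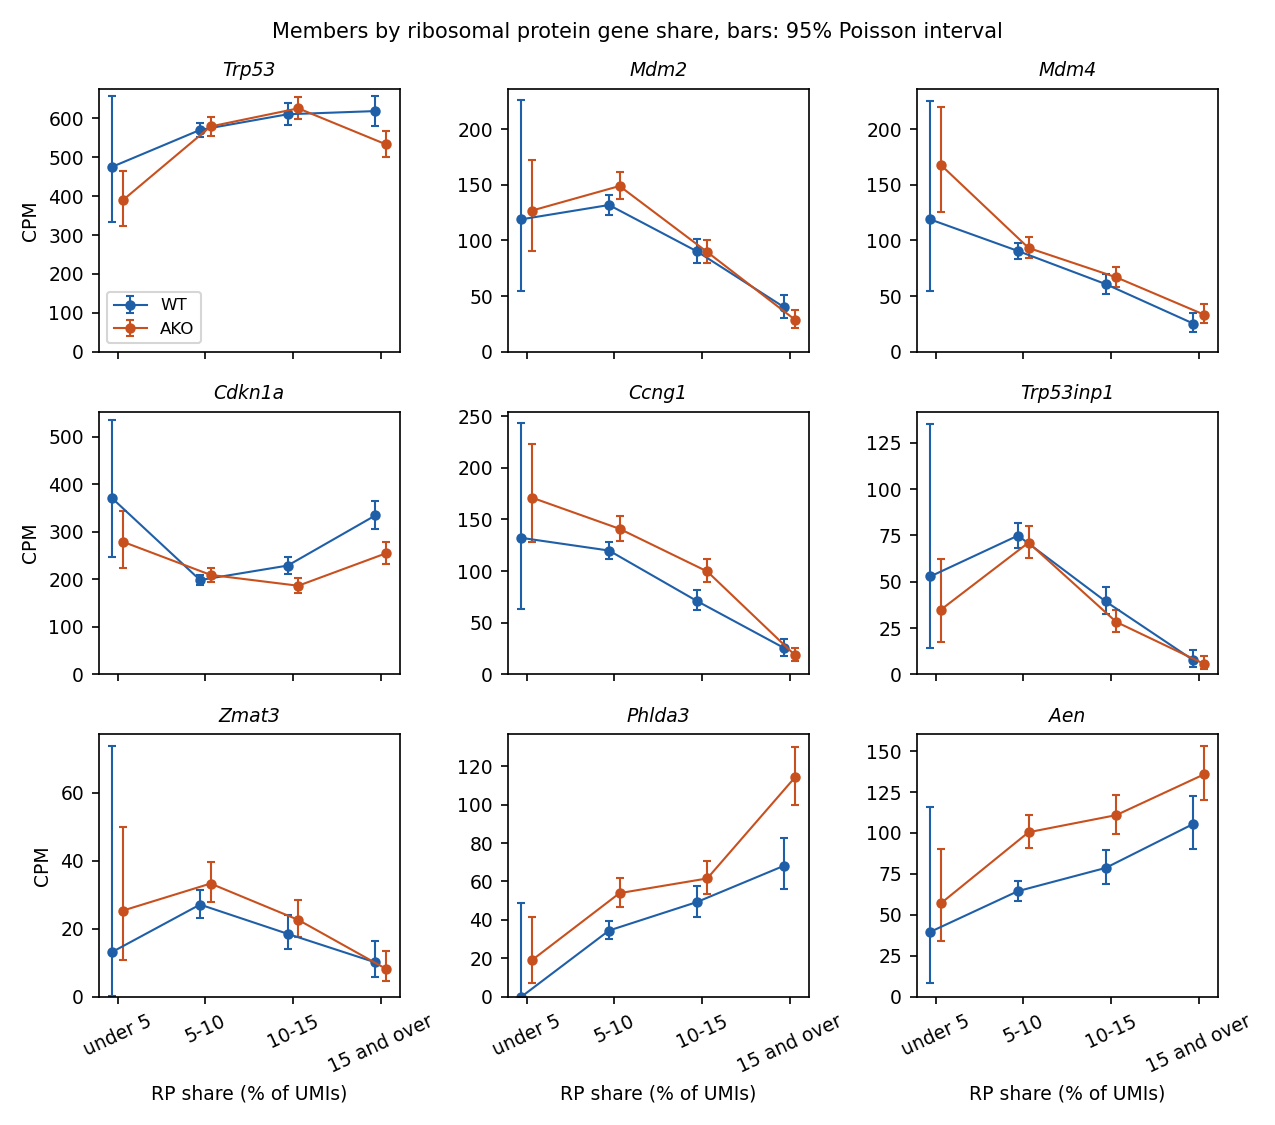
Level of each member in CPM against RP share of the cell in 4 bins, for WT (blue) and AKO (orange) other cells, with 95% Poisson intervals and axes that begin at 0. *Mdm2*, *Mdm4*, *Ccng1*, *Trp53inp1* and *Zmat3* are lowest at 15% or over, where *Phlda3* and *Aen* are highest, while *Trp53* stays between 389.8 and 626 CPM.

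Across terciles of S-phase markers *Cdkn1a* was lowest where S markers were highest. Its ratio of the highest over the lowest tercile was 0.617 (0.559 to 0.681) in WT and 0.471 (0.420 to 0.529) in AKO, lower than in all but 6.07% and 1.20% of genes. *Phlda3* followed, at 0.684 (0.545 to 0.856) and 0.506 (0.413 to 0.618). *Mdm2* was higher in the S-marker-rich tercile, at 1.42 (1.22 to 1.64) and 1.55 (1.31 to 1.84), and *Trp53* was even at 0.991 and 1.03. Past 1.5-fold lower were 1 member (*Cdkn1a*) in WT and 2 (*Cdkn1a* and *Phlda3*) in AKO, where 10.1% and 13.3% of genes were, and past 1.5-fold higher were 0 and 2 (*Mdm2* and *Trp53inp1*), where 16.6% and 29.7% of genes were. The terciles also differed in RP share, with medians of 11.5% in the lowest and 8.69% in the highest tercile of WT and 15.9% and 9.31% of AKO, and the part of this in the ratios was not tested. G2/M terciles differed less for *Cdkn1a*, at 0.929 and 0.744. The AKO cell with 132 *Cdkn1a* UMIs was kept in the S and G2/M terciles, and its part in the AKO ratios was not tested.

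The number of targets found in a cell varied widely. Among other cells of at least 2000 UMIs the median was 3 of the 8 targets in both libraries, 88 of 1600 WT and 56 of 1097 AKO cells had none, and 2 and 15 had all 8. The 42 WT fibroblasts of that depth had a median of 6 and the 13 AKO fibroblasts a median of 4. These counts are at full depth, and 311 AKO but 173 WT cells held 10000 UMIs or more.

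Co-detection was then set against the product of the shares of cells with each gene, both at 2000 UMIs per cell. Over the 28 pairs of targets the median of observed over product was 1.19 in WT (range 0.919 to 1.63, 24 pairs over 1) and 1.15 in AKO (0.842 to 1.86, 22 pairs over 1). Over all 46488903 pairs of the 9643 genes, at any level, the median was 0.999 and 0.997, with 49.4% and 49% of pairs over 1. The middle 90% of these pairs lay between 0.726 and 1.29 in WT and between 0.657 and 1.45 in AKO. Of all pairs 89.7% in WT and 78.9% in AKO were below the median of the target pairs. Pairs share genes, so none of these counts is of independent values. The pairs furthest above 1 were those of *Trp53inp1* with *Mdm4* (1.63 and 1.59), with *Ccng1* (1.57 and 1.86), with *Mdm2* (1.53 and 1.52) and with *Zmat3* (1.52 and 1.53). *Mdm2* with *Ccng1* had 1.37 and 1.46. *Cdkn1a* with *Mdm2*, the pair best known as p53 targets, had 1.15 and 1.14. The ratio has less room above 1 for genes found in more cells, and the pairs were not matched for this. At 2000 UMIs *Cdkn1a* was found in 33.8% of WT and 31.1% of AKO cells but *Zmat3* in 4.35% and 4.63%. These ratios therefore do not rank how closely the genes of a pair go together. *Aen* with the other 7 targets ranged from 0.919 (*Mdm2*) to 1.13 (*Zmat3*) in WT and from 0.842 (*Trp53inp1*) to 1.20 (*Phlda3*) in AKO.

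Co-detection of *Trp53* with the targets lay close to the product. Its 8 pairs had a median of 0.978 and 0.975, with a range of 0.916 to 1.01 and 0.917 to 1.01. *Trp53* had a UMI in 67.9% of WT and 65.5% of AKO cells at 2000 UMIs, so its ratios have less room above 1. They are not like for like with the ratios of the rarer targets. The genes co-detected most are those that were low in RP-rich cells. In cells of 5 to 10% RP share alone, an alternative chosen after seeing the data, the median over the 28 pairs was 1.22 and 1.14, with 25 and 27 pairs over 1, but *Mdm2* with *Ccng1* and the 4 pairs of *Trp53inp1* named above came closer to 1. *Trp53inp1* with *Ccng1* had 1.40 in WT and 1.33 in AKO there, with *Mdm4* 1.42 and 1.12, with *Mdm2* 1.34 and 1.17 and with *Zmat3* 1.37 and 1.11. *Mdm2* with *Ccng1* had 1.24 and 1.05, and the highest pair of AKO was *Cdkn1a* with *Phlda3*, at 1.53. These values share the cells, the capture and the depth of a library and carry no test.

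**Figure D5:**
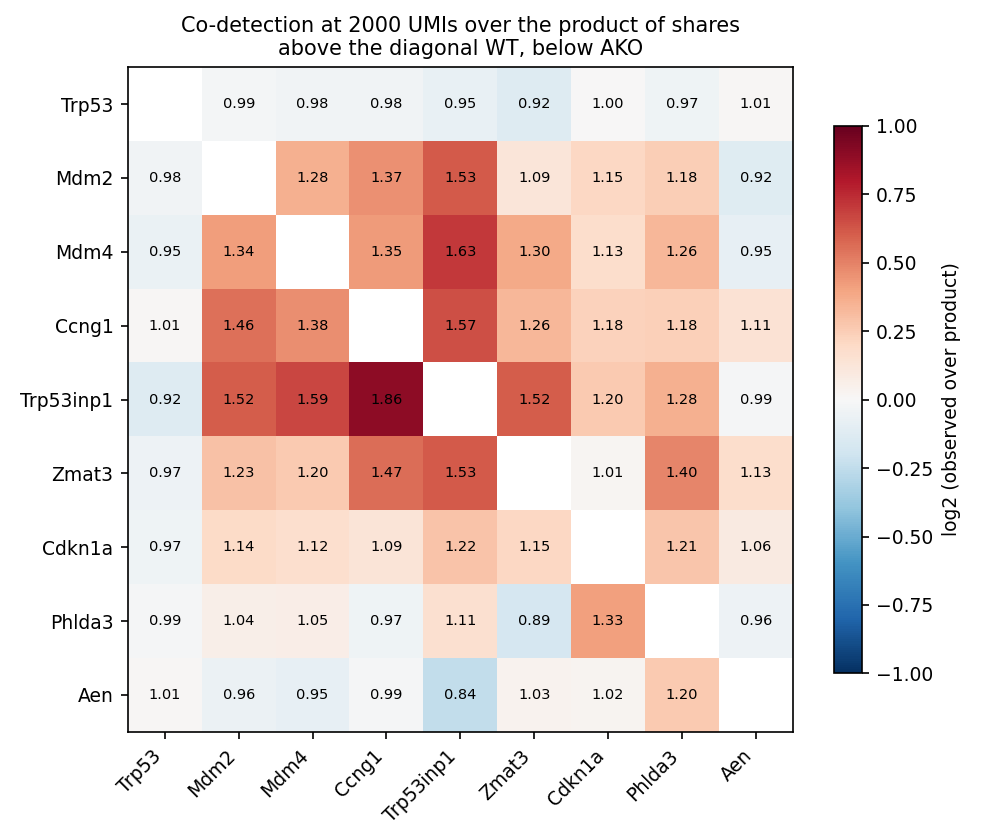
Co-detection of each pair of members at 2000 UMIs per cell divided by the product of both shares, WT above and AKO below the diagonal, coloured by log2. The block of *Mdm2*, *Mdm4*, *Ccng1*, *Trp53inp1* and *Zmat3* is above 1 in both libraries, from 1.09 to 1.86, while the row and column of *Trp53* lie between 0.916 and 1.01. The ratio has less room above 1 for genes found in more cells, and *Trp53* was found in the most.

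Variation beyond counting error was high for most targets. At 2000 UMIs *Trp53inp1* had a squared coefficient of variation of 1.37 in WT and 1.72 in AKO, above 98.3% and 97.6% of genes with at least 200 UMIs in these cells, at any level. *Mdm2* had 0.858 and 1.11, and *Cdkn1a* had 0.808 and 1.79. With a fibroblast limit of 0.1%, which leaves out the AKO cell with 132 *Cdkn1a* UMIs, the AKO values were 0.666 for *Mdm2*, below the 0.863 of WT, and 0.912 for *Cdkn1a*. *Aen* varied least of the targets, at 0.0368 and 0.384, and *Zmat3* had 0.107 and 0.507.

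Over cells of at least 2000 UMIs, the genes outside the members whose log-normalized level was most like the summed 8 targets were *Plk2* (mean of both libraries' Pearson r 0.277), *Sdc4* (0.259), *Btg2* (0.227) and *Eda2r* (0.188). The next in rank were the nuclear RNA *Malat1* (0.182) and the mitochondrial *mt-Rnr2* (0.176) and *mt-Co1* (0.176), nearly as high as *Eda2r*. *Plk2*, *Btg2* and *Eda2r* are known p53 targets. For *Cdkn1a* the most alike genes were *Sdc4* (0.192), *Plk2* (0.163), *Btg2* (0.157), *Ddit4* (0.152) and *Grn* (0.130). For *Trp53* they were the ES marker *Pou5f1* (0.168), *Tuba1b* (0.164), *Rpl37a* (0.157), Gm3839 (0.146) and *Ppia* (0.146). *Pou5f1* led only through AKO (r 0.245), and its r of 0.0907 in WT was the lowest of those listed for *Trp53*. These are descriptions over 1600 and 1097 cells that share a library and differ in depth, and all are weak.

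The wider p53 pathway was followed in 74 genes on 5 lists, of which 58 had at least 200 UMIs, and 6 were higher and 6 lower past 1.5-fold, where 6.87% and 7.87% of all genes compared were. The lists were drawn up by hand with earlier results known, so their counts are a description, and 4 were higher and 7 lower under median of ratios scaling. Of 10 genes compared on the list of growth arrest targets, 3 were higher in AKO (*Pml* 1.65, *Plk3* 1.61, *Plk2* 1.51) and 0 lower. This list also holds *Cdkn2a* (1.47), which acts upstream of p53 and is not counted among its targets elsewhere. Of 7 apoptosis targets 1 was higher (*Bbc3*, which encodes PUMA, 1.51) and of 14 repair and metabolism targets 2 were higher (*Dcxr* 2.21, *Gdf15* 1.86), with 0 lower. *Bbc3* and *Plk2* were no longer past 1.5-fold under median of ratios scaling. Of 15 upstream kinases and cofactors 4 were lower, namely the DNA damage kinase *Atm* (0.507), the checkpoint kinase *Chek1* (0.579) and the acetyltransferases *Crebbp* (0.609) and *Ep300* (0.612). Of 12 ribosomal stress sensors the nucleolar genes *Gnl3* (0.569) and *Ncl* (0.601) were lower.

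The median log2 ratio was 0.38 over the growth arrest list, 0.18 over apoptosis targets, 0.10 over repair and metabolism targets, -0.20 over upstream genes and 0.03 over ribosomal stress sensors, against 0.03 over all genes compared. The growth arrest median lies between *Gadd45a* (ratio 1.16) and *Cdkn2a* (1.47), so it rests in part on a gene that acts upstream of p53. A median without *Cdkn2a* was not computed. The middle 90% of single genes lay between -0.69 and 0.65. A median over a list varies less than a single gene, so this range is no gauge for the list medians.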

How the data were processed

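Single-cell counts of 2 inDrop libraries were used. The authors ran a published inDrop pipeline and deposited its UMI counts, not normalized, for every gene and barcode, shallow barcodes included. The submitters' processing notes name build mm10 and Seurat 2.3.4, and the aligner is not given in the sources used here. Genes were named through GENCODE M21 (GRCm38), in which 54079 of 54146 identifiers matched without version. The limits of 500 UMIs and 20% mitochondrial share follow the methods. The members and lists were chosen with earlier results of these data known.

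UMIs were summed over cells and scaled to 1000000 UMIs (CPM), with exact Poisson intervals, exact conditional binomial intervals for ratios, and exact binomial intervals for shares. Ratios across all genes had 0.5 added to each count. Detection at 2000 UMIs used the hypergeometric distribution. Over all pairs of genes the joint share was the mean product of both genes' chances in a cell. Doublets were kept, and Scrublet marked 27 WT and 18 AKO cells. Genes named are all members, *Lin28a*, cell type markers, up to 4 list genes per direction past 1.5-fold, and the genes of most like pattern. The calculation was tested on simulated data. Columns of per-sample values not used numbered 0. Scripts ran under Python 3.11.15 with scanpy 1.11.5, scipy 1.17.1, matplotlib 3.10.9, pandas 2.3.3 and numpy 2.4.6.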

Additional observations from a re-analysis of the deposited data

How the results depend on the processing

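Each AKO over WT ratio of a member or of the summed 8 targets was recomputed under 13 alternatives, and ratios below are outside the interval of the reported one. With fibroblasts kept in, the summed 8 targets turned from 1.06 to 0.912, and the ratio was 0.848 for *Mdm2*, 0.714 for *Cdkn1a* and 1.37 for *Phlda3*. A fibroblast limit of 0.1% gave 0.871 for *Cdkn1a*, and leaving out the AKO cell with most *Cdkn1a* gave 0.878. The mean of single-cell CPM gave 0.941 for *Trp53*, 0.850 for *Mdm2* and 0.590 for *Trp53inp1*. Median of ratios scaling, which shifts all log2 ratios by -0.06, gave 0.943 for *Trp53* and 1.01 for the sum. Weighting the bins of RP share as in WT gave 1.08 for *Mdm2*, 1.21 for *Ccng1*, 0.899 for *Trp53inp1* and 1.10 for the sum. The ratios of fibroblasts over other cells had 1 alternative, a limit of 1%, under which fibroblasts exceeded other cells in the 8 targets 5.58-fold in WT and 3.29-fold in AKO. *Aen*, *Mdm4* and *Zmat3* stayed within their intervals under all 13 alternatives. Of the pathway genes 2 of 31 were higher and 5 lower with a minimum of 1000 UMIs per gene (3.25% and 8.41% of all genes), 9 of 66 higher and 6 lower with 50 (11.4% and 8.12%), and 1 of 58 higher and 0 lower at a fold of 2 (1.18% and 1.36%). Thinning to 1000 UMIs lowered all 18 shares of cells with a UMI, which follows largely from the lower depth and is no check of the differences between the libraries. No paired analysis was possible because each genotype has 1 library. The cause of these changes was not tested. Depth limits *Zmat3* most, with 250 and 222 UMIs.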
